A study of Mus musculus with 14 samples.

Results

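The genes of monoamine neurons described here are the 10 that make, package, take up, degrade or switch on the dopamine, serotonin and noradrenaline system: Th, Ddc, Tph2, Dbh, Slc6a3, Slc6a4, Slc6a2, Slc18a2, Maoa and Fev. They were chosen by name for what they are known to do, and 9 of the 10 were among the 17927 genes of the count table. Fev, a transcription factor of serotonin neurons, was not analysed here. The question asked of them was whether their RNA level differed between wild-type (WT) mice and mice that lack Capn15, an intracellular cysteine protease of the calpain family, and how far litter and sex moved them.

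RNA-SEQ was done on 14 brains taken at postnatal day 2 (P2) and snap-frozen, 7 from WT and 7 from Capn15 KO mice. The KO mice carry the Capn15(lacZ-Neo) allele in every tissue on a C57BL/6J background. The column names place the brains in 6 litters, lettered A to F, and give 4 females and 3 males among the KO and 2 females and 5 males among the WT mice. Replicate numbers follow the litters: number 1 is litter A, numbers 2 and 3 are litter B, and numbers 4 to 7 are litters C to F. The labels name the cell type as neurons, but markers of glia, vessels, choroid plexus and blood were present in all 14 libraries. In whole brain, fewer cells of a type and less RNA per cell cannot be told apart, and this holds for every level below.

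In this system the amino acid tyrosine is turned into L-DOPA by tyrosine hydroxylase (Th) and tryptophan into 5-hydroxytryptophan by tryptophan hydroxylase 2 (Tph2), the rate-limiting steps of catecholamine and serotonin synthesis. Aromatic L-amino acid decarboxylase (Ddc) serves both routes, dopamine beta-hydroxylase (Dbh) turns dopamine into noradrenaline, and the vesicular transporter Slc18a2 (VMAT2) loads all of these amines into vesicles. Released dopamine, serotonin and noradrenaline are taken back up by Slc6a3 (DAT), Slc6a4 (SERT) and Slc6a2 (NET), and monoamine oxidase A (Maoa) breaks them down. The cells that make these amines are few and sit mostly in the midbrain and hindbrain, and in the young mouse brain Slc6a4 and Maoa are also made by some neurons that do not synthesise serotonin.

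The 9 measured genes are spread over 8 chromosomes. In GENCODE annotation of the GRCm38 build, Th lies at chr7:142892752-142931128 on the minus strand, Ddc at chr11:11814101-11898144 on the minus strand and Slc6a4 at chr11:76998603-77032340 on the plus strand. Tph2 lies at chr10:115078641-115185022 on the minus strand, Dbh at chr2:27165233-27183200 on the plus strand and Slc6a3 at chr13:73536747-73578672 on the plus strand. Slc6a2 lies at chr8:92960079-93001667, Slc18a2 at chr19:59260896-59296012 and Maoa at chrX:16619698-16687818, each on the plus strand. In 3 cases the gene overlaps another that has no row in the count table: Ddc overlaps 1700042O10Rik, Slc6a4 overlaps Gm12343, and Slc18a2 shares 111 exonic bases with Gm29261 on the other strand.

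Promoter sequences, 300 bases from 250 before to 50 after the annotated start (RefSeq, GRCm38.p6), were found for 9 of the 10 genes, with 2 starts for Ddc. A further motif was searched and is not reported here. The motifs described, 3 in all, are known from catecholamine and serotonin genes, and both strands were read: the cAMP response element (TGACGTCA), the NBRE bound by NR4A factors (AAAGGTCA) and the ETS core (GGAAGT). The 3 promoters that held any of them are printed 5′ to 3′ along their gene with the match in capitals, because they are the ones in which the regulatory letters can be seen. They are followed by those of Slc6a3 and Dbh, the genes with the furthest values between genotypes below.
Th, chr7:142899946-142900245, minus strand: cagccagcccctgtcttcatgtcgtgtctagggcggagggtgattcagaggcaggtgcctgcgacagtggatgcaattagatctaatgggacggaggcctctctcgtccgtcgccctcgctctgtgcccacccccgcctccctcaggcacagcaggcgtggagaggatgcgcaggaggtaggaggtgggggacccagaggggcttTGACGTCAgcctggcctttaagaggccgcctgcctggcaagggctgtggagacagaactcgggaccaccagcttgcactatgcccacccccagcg
Slc18a2, chr19:59260628-59260927, plus strand: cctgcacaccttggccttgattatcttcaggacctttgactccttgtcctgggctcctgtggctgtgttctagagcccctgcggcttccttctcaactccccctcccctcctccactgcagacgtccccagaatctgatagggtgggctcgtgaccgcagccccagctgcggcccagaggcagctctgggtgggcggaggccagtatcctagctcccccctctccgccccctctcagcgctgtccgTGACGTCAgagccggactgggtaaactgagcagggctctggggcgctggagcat
Ddc, upstream start, chr11:11898095-11898394, minus strand: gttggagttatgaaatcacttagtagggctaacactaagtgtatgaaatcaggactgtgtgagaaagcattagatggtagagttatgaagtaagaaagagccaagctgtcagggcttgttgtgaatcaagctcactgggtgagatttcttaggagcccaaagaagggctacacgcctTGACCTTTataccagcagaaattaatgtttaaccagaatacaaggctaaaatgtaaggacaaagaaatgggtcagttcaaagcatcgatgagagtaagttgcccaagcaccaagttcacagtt
Slc6a3, chr13:73536497-73536796, plus strand: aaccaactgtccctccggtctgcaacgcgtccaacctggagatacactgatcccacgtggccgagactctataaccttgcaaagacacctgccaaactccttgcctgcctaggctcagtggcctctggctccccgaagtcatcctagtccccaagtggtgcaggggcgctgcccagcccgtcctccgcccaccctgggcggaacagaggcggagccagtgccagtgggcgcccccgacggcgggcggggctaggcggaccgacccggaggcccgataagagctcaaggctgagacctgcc
Dbh, chr2:27165257-27165556, plus strand: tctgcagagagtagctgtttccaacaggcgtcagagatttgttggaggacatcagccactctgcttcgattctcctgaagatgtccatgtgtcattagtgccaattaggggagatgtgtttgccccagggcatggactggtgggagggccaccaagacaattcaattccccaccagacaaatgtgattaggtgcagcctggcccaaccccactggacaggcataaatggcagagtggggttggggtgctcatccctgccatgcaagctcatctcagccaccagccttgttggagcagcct

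The cAMP response element began 45 bases before the start in Th and 4 bases before it in Slc18a2, a palindrome that reads the same on both strands. Of the 2 Ddc promoters, only the upstream one held a match. It was the NBRE on the other strand, as TGACCTTT, 73 bases before the start. These motifs were found in 1.79% and 1.51% of all 32851 promoters of that length. The ETS core stood in 23.8% of all promoters and was not found in those of these genes. Base composition set the genes apart from one another: the promoter of Slc6a4 was 67.7% G and C with 28 CpG dinucleotides, that of Slc6a3 66% with 20 and that of Th 64.3% with 15. That of Dbh was 54% with 2 CpG, and the upstream Ddc promoter 41.3% with 2, against medians of 52.7% and 7 over all promoters. A match is a description of letters and not evidence of binding.

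Libraries held 37620954 to 70910163 counts assigned to genes, with medians of 43181055 in WT and 50059045 in Capn15 KO mice. At that depth the monoamine genes received between 111 counts (Dbh) and 5999 counts (Maoa) in a library. Levels are given as CPM, counts scaled to the total of each library after TMM adjustment. Capn15 itself had 25.4 ± 3.07 CPM in WT and 14.5 ± 2.67 CPM in Capn15 KO mice (mean ± SD, n = 7 each; log2 fold change −0.81, SE 0.118, FDR = 0.0747 in edgeR), but litter F went against the labels: the library labelled WT 7 had 18.7 CPM and that labelled Capn15 KO 7 had 20.2 CPM. The other 6 WT libraries lay between 25.0 and 27.3 CPM and the other 6 Capn15 KO libraries between 12.2 and 14.5 CPM. Values without litter F are therefore given beside the results that it moved by over 1.5 times.

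Levels of different genes were compared only per kilobase of exon. In WT brains Maoa had the highest level, 20.8 CPM per kilobase, followed by Slc18a2 at 4.42. Next came a group at close levels: Slc6a3 at 3.24, Tph2 at 3.07, Th at 3.07, Ddc at 2.95 and Slc6a4 at 2.91 CPM per kilobase. The noradrenaline genes were lowest, Slc6a2 at 1.15 and Dbh at 1.05 CPM per kilobase. Maoa was above Slc18a2, Slc18a2 above Slc6a3 and Slc6a4 above Slc6a2 in 14 of 14 libraries, whereas neighbours within the middle group changed places, each standing above the next in 5 to 8 of 14 libraries. Slc6a2 was above Dbh in 11 of 14.

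**Figure D1:**
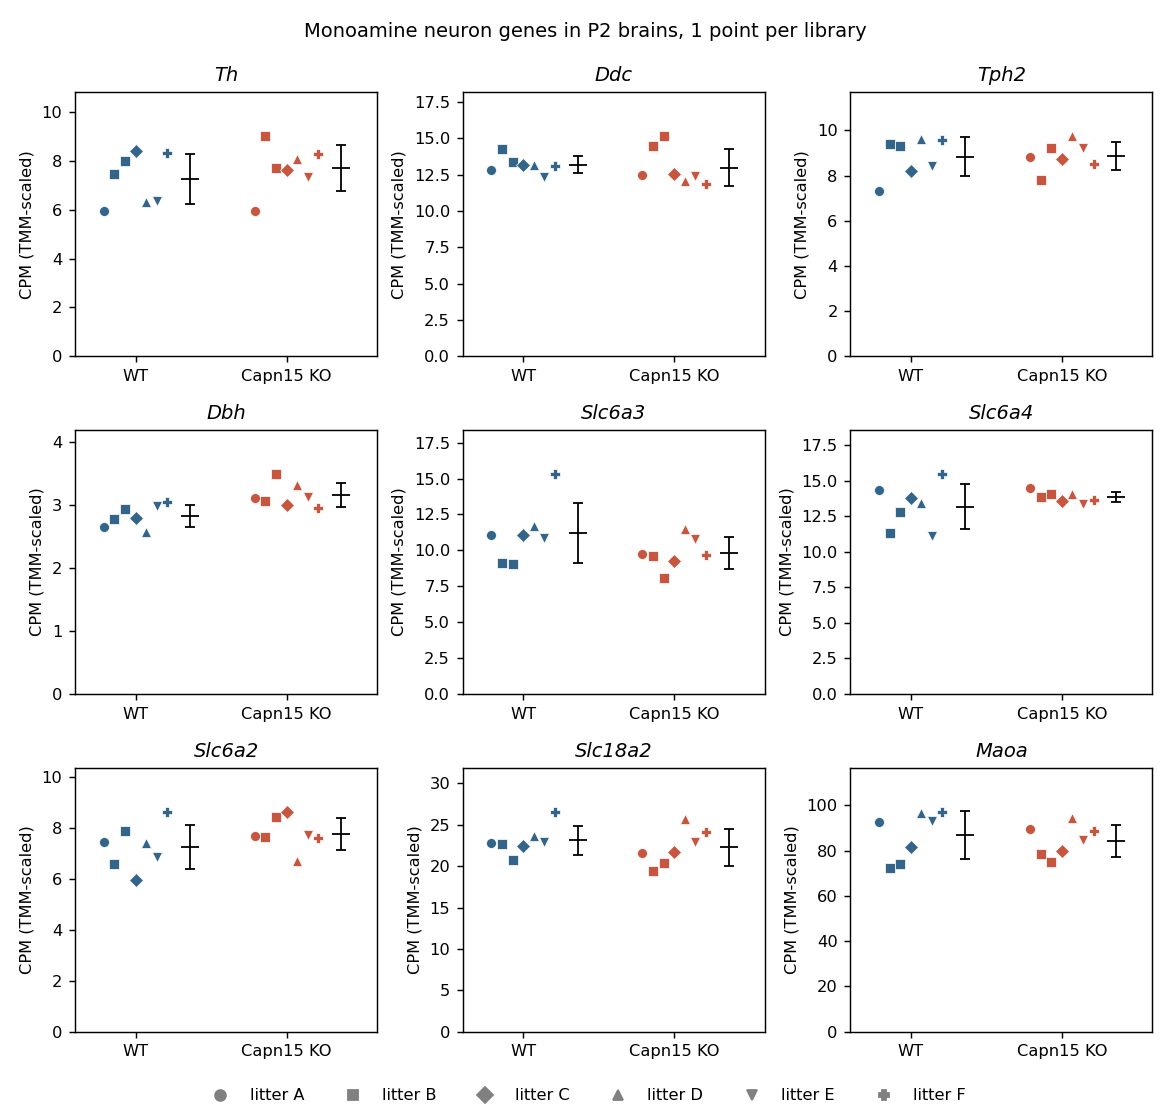
Level of each of the 9 measured genes in every library (CPM, 1 panel per gene, 7 WT and 7 Capn15 KO libraries, shapes for litters, bars at the mean ± SD). The 2 groups overlap in every panel, and the WT library of litter F stands at 15.3 CPM for Slc6a3, above the other 6 WT libraries.

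Between genotypes, none of the 9 genes passed an FDR of 0.05 in the edgeR quasi-likelihood test with sex and litter as variables, in which 1 of all 17927 genes (0.00558%) did. Without litter F, 7 of all genes and 0 of the 9 did. The study reports many more genes at that FDR from its own edgeR analysis, Capn15 among them. Unadjusted p was under 0.05 for 1 of the 9 genes, Slc6a3, against 5.14% of all genes. Fitted log2 fold changes (Capn15 KO minus WT) ran from −0.19 to 0.16, 4 below and 5 above 0, with a median of 0.0069 against 0.0015 over all genes. The 95% intervals of the 9 genes reached from −0.36 to 0.34 on the log2 scale. WT and Capn15 KO ranges overlapped for all 9, and 0.00558% of all genes had ranges apart.

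Of the synthesis enzymes, Th had 5.94, 7.46, 7.98, 8.38, 6.31, 6.35 and 8.30 CPM in WT replicates 1 to 7. In Capn15 KO replicates 1 to 7 it had 5.94, 9.0, 7.7, 7.6, 8.06, 7.33 and 8.27 CPM. Both mice of litter A were the lowest of their group, and the groups covered nearly one range. The fitted log2 fold change of Th was 0.091 (SE 0.0677, 95% interval −0.054 to 0.24). The Capn15 KO mouse was the lower one in 4 of 7 pairs of the same replicate number, with nearly equal values in litters A and F.

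Tph2, the serotonin enzyme, lay between 7.31 and 9.64 CPM in WT (median 9.29) and between 7.81 and 9.74 CPM in Capn15 KO brains (median 8.81). Its group means were 8.84 ± 0.879 and 8.86 ± 0.615 CPM (± SD, n = 7 per genotype), with a fitted log2 fold change of 0.0069 (SE 0.0661, 95% interval −0.13 to 0.15), which was 0.041 without litter F. No library stood apart in either group. Ddc, needed for all 3 amines, lay between 12.3 and 14.2 CPM in WT (median 13.1) and between 11.9 and 15.1 CPM in Capn15 KO brains (median 12.5), a log2 fold change of −0.047 (SE 0.0433) that was −0.029 without litter F. The 2 highest Ddc values in the Capn15 KO group, 14.5 and 15.1 CPM, were both from litter B.

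Dbh, the noradrenaline enzyme and the least abundant of the 9, had 2.65, 2.77, 2.94, 2.79, 2.57, 2.98 and 3.04 CPM in WT replicates 1 to 7. In Capn15 KO replicates 1 to 7 it had 3.11, 3.06, 3.49, 3.0, 3.32, 3.13 and 2.96 CPM. The Capn15 KO mouse was the higher one in 6 of 7 pairs, and litter F was the exception, by −0.039 on the log2 scale. An exact permutation test of the mean log2 CPM (two-sided, 7 against 7) gave p = 0.0035, the only one of the 9 genes under 0.05 against 1.73% of all genes, where the smallest p possible was 0.000583. Adjusted over all genes, this p was 1, and 0 of 17927 genes passed, Capn15 included. With that smallest p, no gene can pass unless many lie at it together, so the adjusted value says little about Dbh. The edgeR fit gave a log2 fold change of 0.16 (SE 0.0804, p = 0.0601, FDR = 0.979), and the exact sign-flip test over the 7 pairs gave p = 0.0312. Unlike the edgeR fit, the permutation test takes no account of litter or sex. Within litter B the pairs are matched by replicate number alone.

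Without litter F the fitted log2 fold change of Dbh was 0.20 (unadjusted p = 0.0387 and FDR = 1 in edgeR), with an exact permutation p of 0.00216. Dbh was then the only one of the 9 genes whose groups did not overlap, at 2.57 to 2.98 CPM in 6 WT and 3.0 to 3.49 CPM in 6 Capn15 KO brains, which held for 0.106% of all genes (a count made after its values were seen). For groups that do not overlap, the permutation p is always the smallest that 6 against 6 can give. The p without litter F therefore adds nothing to that count, and litter F was the pair that went the other way. The spread of Dbh among replicates, 6.23% of the mean in WT and 6.0% in Capn15 KO brains, was below the 8.95% and 8.16% that counting alone gives at its 111 to 222 counts per library. Markers of brainstem and caudal regions (Slc6a5, Glra1, Hoxa2, Hoxa3, Hoxb2, Hoxb3 and Hoxb4) had a summed level of 23.3 to 35.6 CPM in WT and 18.3 to 34.3 CPM in Capn15 KO brains. All 7 of these markers had a fitted log2 fold change below 0, with a median of −0.22, against 48.6% of all genes below 0. Mean CPM, which takes no account of litter or sex, was lower in Capn15 KO brains for all but 2 of the 7. Those were Glra1 (2.852 in Capn15 KO against 2.846 in WT) and Hoxa2 (1.937 against 1.882). Exact permutation p of the 7 ran from 0.425 to 0.955. An unadjusted p under 0.05 was found for 1 of them, against 5.14% of all genes, and none passed an FDR of 0.05 in edgeR. Their part in the Dbh value was not tested. Slc6a2, the noradrenaline transporter, had 7.26 ± 0.874 CPM in WT and 7.79 ± 0.628 CPM in Capn15 KO brains, a log2 fold change of 0.10 (SE 0.0831). Without litter F that of Slc6a2 was 0.16 (exact permutation p = 0.0801).

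Slc6a3, the dopamine transporter, had 11.1, 9.16, 9.07, 11.1, 11.7, 10.9 and 15.3 CPM in WT replicates 1 to 7. In Capn15 KO replicates 1 to 7 it had 9.77, 9.59, 8.05, 9.23, 11.5, 10.8 and 9.71 CPM. The Capn15 KO mouse was the lower one in 6 of 7 pairs, yet 5 of those 6 differed by 0.26 or less on the log2 scale and litter F by −0.66. The fitted log2 fold change was −0.19 (SE 0.0765, 95% interval −0.36 to −0.029, p = 0.0243, FDR = 0.886 in edgeR), and the exact permutation test gave p = 0.143. Without litter F the fitted value was −0.10 (exact permutation p = 0.346), and the groups had 10.5 ± 1.11 and 9.83 ± 1.21 CPM (SD, n = 6 each). The highest Slc6a3 level of all 14, that of WT 7, came from a library whose Capn15 level went against its label.

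Slc6a4, the serotonin transporter, had 13.2 ± 1.58 CPM in WT and 13.9 ± 0.371 CPM in Capn15 KO brains, with a log2 fold change of 0.055 (SE 0.0548, 95% interval −0.063 to 0.17; exact permutation p = 0.269). Without litter F it was 0.10 (exact permutation p = 0.0823), with the Capn15 KO mouse the higher one in 5 of 6 pairs. Its spread was unlike between them: WT libraries ran from 11.1 to 15.5 CPM (median 13.4) and Capn15 KO libraries from 13.4 to 14.4 CPM (median 13.8). The coefficient of variation was 12% in WT and 2.68% in Capn15 KO brains, where counting alone gives 4.16% and 3.89%, and this difference in spread was seen in the values and was not tested. Slc18a2, the vesicular transporter, lay between 20.7 and 26.6 CPM in WT and between 19.4 and 25.7 CPM in Capn15 KO brains (log2 fold change −0.040, SE 0.0400, and −0.021 without litter F). Maoa lay between 72.1 and 97.2 CPM in WT and between 75.0 and 94.3 CPM in Capn15 KO brains (log2 fold change −0.041, SE 0.0327, and −0.024 without litter F), the narrowest standard error of the 9 genes.

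**Figure D2:**
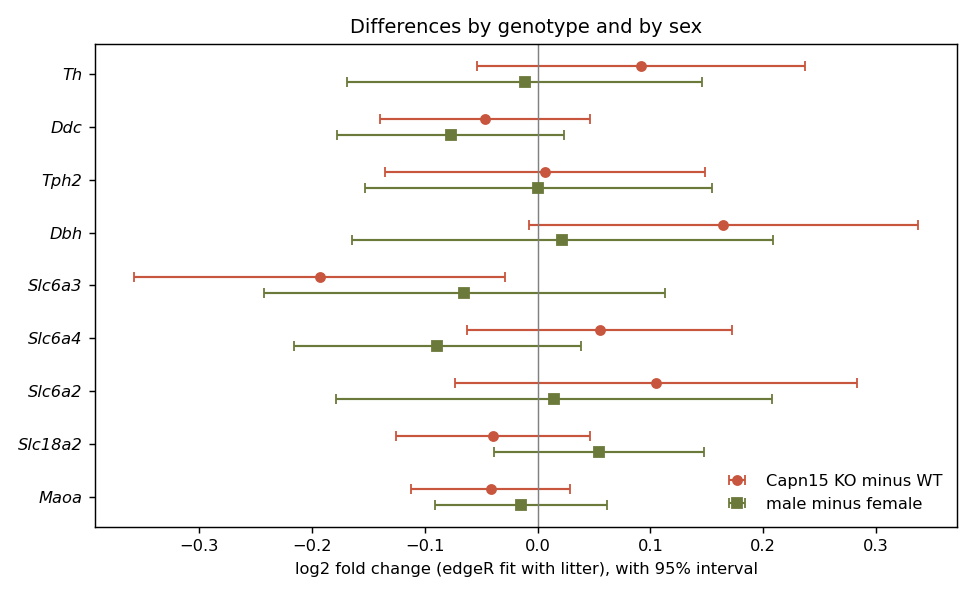
Fitted log2 fold change of each gene with its 95% interval, for genotype (Capn15 KO minus WT) and for sex (male minus female), from 1 edgeR fit to 14 libraries with litter as a variable. The genotype intervals lie within −0.36 and 0.34, and that of Slc6a3 is the one that leaves out 0.

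Sex moved none of the 9 genes past an FDR of 0.05 in edgeR, against 12 of all genes (0.0669%), and none had an unadjusted p under 0.05, against 5.04% of all genes. The median log2 difference (male minus female) was −0.012 and the lowest FDR among the 9 was 0.927. Maoa is X-linked, and its difference was −0.015 (SE 0.0354, FDR = 0.974), or −0.0091 without litter F (FDR = 0.986 in edgeR). In 6 of the 7 pairs the WT and the Capn15 KO mouse were of opposite sex, the Capn15 KO mouse being the female in 4 of them, and both mice of litter F were male.

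Litter, unlike genotype and sex, gave calls among these genes, although the terms were not tested against each other. A test of litter in the same edgeR model, added after the values were seen, called 3 of the 9 genes at an FDR of 0.05: Maoa (FDR = 0.000712), Slc18a2 (FDR = 0.0290) and Th (FDR = 0.0376). Of all genes 29.6% were called, so 3 of 9 is near the background. Maoa had litter means of 91.2 CPM in A, 74.8 in B, 80.7 in C, 95.4 in D, 88.8 in E and 92.9 in F. The 4 brains of litter B, of both genotypes and sexes, had 72.1 to 78.3 CPM of Maoa, and the other 10 had 79.8 to 97.2 CPM.

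Th took another order, lowest in litter A at 5.94 CPM and between 6.84 and 8.28 CPM in the rest, with litter B at 8.04. Slc18a2 was lowest in litter B at 20.8 CPM and highest in litter F at 25.4. Ddc went the other way, at 14.3 CPM in litter B and 12.4 to 12.8 CPM elsewhere, but its litter FDR was 0.101. Slc6a3 was also lowest in litter B, at 8.97 CPM (litter FDR = 0.0537). With litter B left out, 196 of all genes and none of the 9 were called, with an FDR of 0.134 for Maoa, 0.376 for Slc18a2 and 0.223 for Th in edgeR. That run has 10 libraries in place of 14, and how far the lost calls come from the smaller number or from litter B was not tested.

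**Figure D3:**
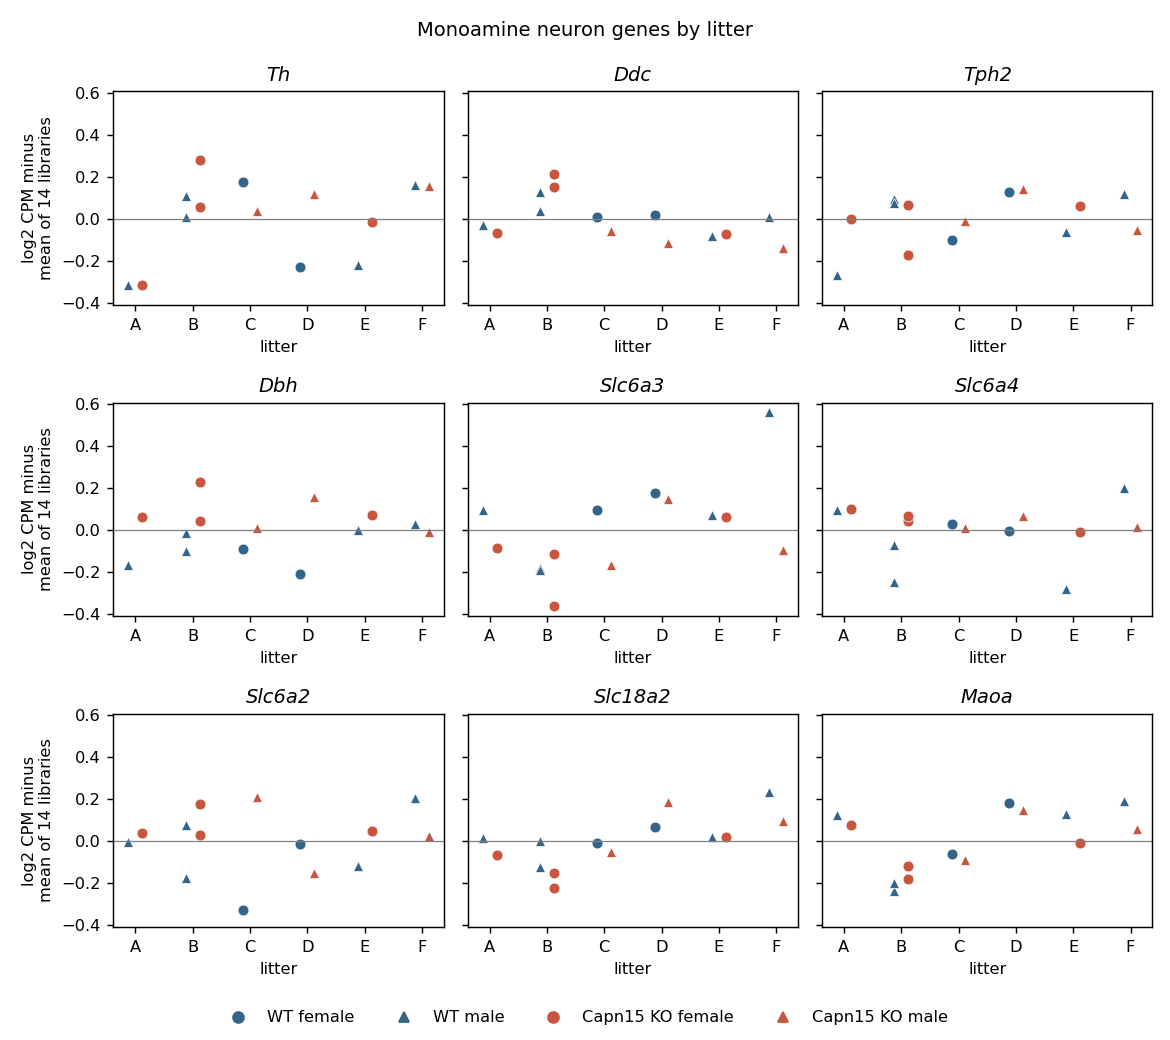
Level of the 9 genes in litters A to F, as log2 CPM minus the gene's mean over 14 libraries (points are single brains, 4 in litter B and 2 in each other litter, with colour for genotype and shape for sex). Litter B is lowest for Maoa (mean 74.8 CPM) and Slc18a2 (20.8 CPM) and highest for Ddc (14.3 CPM).

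The genes were also compared with each other over the 14 libraries, with the mean of each genotype subtracted from log2 CPM, as a description with no test. Of the 36 pairs, 27 had a Pearson correlation above 0, with a median of 0.0858. Slc6a3, Slc18a2 and Maoa went together: Slc6a3 with Maoa at 0.81, Slc6a3 with Slc18a2 at 0.78 and Slc18a2 with Maoa at 0.72. Ddc went against them, at −0.67 with Maoa and −0.64 with Slc18a2. These libraries share litters, and with litter means also subtracted the same 5 values were 0.52, 0.25, −0.36, 0.46 and −0.12.

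With genotype means alone subtracted, genes of one transmitter were not among the highest pairs. Tph2 and Slc6a4, both serotonin genes, had a correlation of −0.069, Dbh and Slc6a2 had 0.15, and Th and Slc6a3 had 0.052. With litter means subtracted, the highest of the 36 values were 0.71 for Slc6a3 and Slc6a4 and 0.65 for the dopamine pair Th and Slc6a3, whereas Tph2 and Slc6a4 had 0.030. Those values rest on the few degrees of freedom left by 14 libraries in 6 litters. Litter F had the lowest log2 difference (Capn15 KO minus WT) of the 7 pairs for both Slc6a3 (−0.66) and Slc6a4 (−0.18). Its part in their correlation was not tested.

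**Figure D4:**
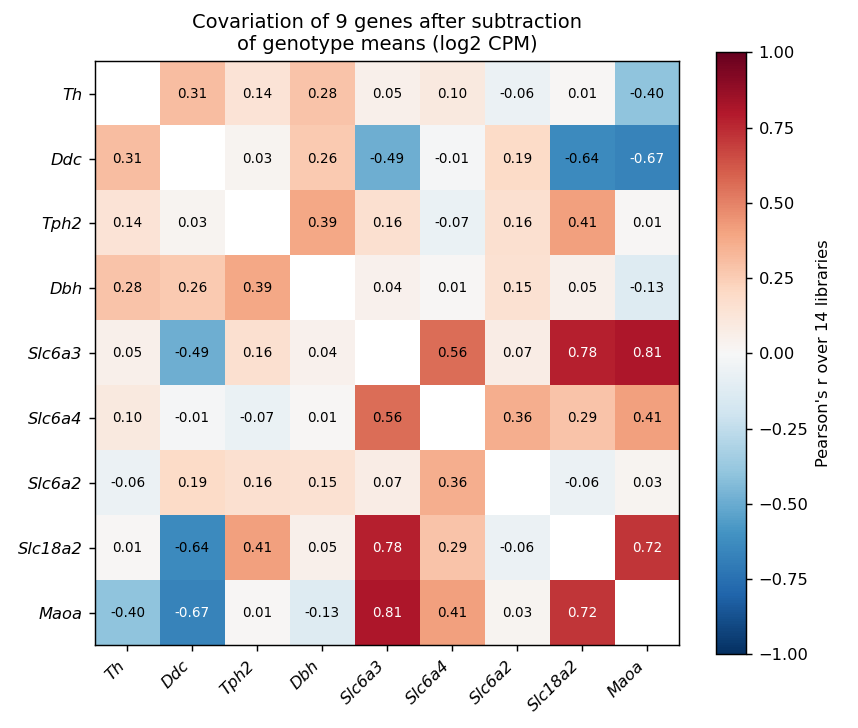
Pearson correlation between each pair of the 9 genes over 14 libraries, log2 CPM with genotype means subtracted. The highest value is 0.81 (Slc6a3 with Maoa) and the lowest −0.67 (Ddc with Maoa).

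Among 15250 genes with a mean log2 CPM of at least 0, those whose pattern over the 14 libraries was most like that of Slc6a3 were Ndufaf7 (correlation 0.929), Pde1b (0.92), Uba3 (0.919), Ptdss2 (0.908) and Cbln4 (0.903). Maoa was ranked 274, Slc18a2 548 and Th 7520 in that order. For Tph2 the nearest were Ift88 (0.82), Shh (0.76), Gm8337 (0.746), Sertad4 (0.743) and Gm7107 (0.739), and Slc6a4 was ranked 9025. For Dbh they were Fam216a (0.817), Garem2 (0.791), Oca2 (0.757), Mphosph6 (0.755) and Slc25a29 (0.747), and Slc6a2 was ranked 5104. In none of these 3 orders was another of the 9 genes among the 5 nearest. The named genes are the highest of 15250 correlations over only 14 libraries that share litters. How high such values reach by chance was not tested, so they are a description and not evidence of a shared pattern.

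The wider pathway was read through 62 further genes in 8 lists. Of these, 54 were measured, none passed an FDR of 0.05 between genotypes in edgeR, and 4 (7.41%) had an unadjusted p under 0.05 against 5.14% of all genes. Their fitted log2 fold changes ran from −0.28 to 0.24, with a median of −0.011. Of the 7 genes that make or recycle tetrahydrobiopterin, the cofactor of Th and Tph2, all were measured and none had an unadjusted p under 0.05: the most abundant, Qdpr and Pts, had log2 fold changes of 0.0093 and −0.035. Among 8 other enzymes and transporters of monoamines, Aldh2, which oxidises the aldehydes that Maoa forms, had −0.0072.

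The 4 genes at an unadjusted p under 0.05 were Aldh1a1, Slc29a4, Nr4a2 and Htr2c. Nr4a2 (Nurr1), a transcription factor of dopamine neurons that is also made in cortex, had 35.1 ± 2.27 CPM (SD) in the 7 WT brains and 38.9 ± 1.85 CPM in the 7 Capn15 KO brains. The fitted difference was 0.16 on the log2 scale (SE 0.0370, FDR = 0.371 in edgeR), and the exact permutation test gave p = 0.00466. Of the 4 genes it was the only one under 0.05 in that test, against 1.73% of all genes. Summed forebrain markers were 270 to 341 CPM in WT and 280 to 351 CPM in Capn15 KO brains. All 5 had a fitted value above 0, 3 had an unadjusted p under 0.05, and none passed an FDR of 0.05 in edgeR. Among all genes, 48.6% had a fitted value below 0 and 5.14% an unadjusted p under 0.05. The part of these markers in the Nr4a2 value was not tested.

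Aldh1a1, an aldehyde dehydrogenase of a subset of dopamine neurons, had a log2 fold change of −0.16 (FDR = 0.641 in edgeR, exact permutation p = 0.0787). Slc29a4, a low-affinity monoamine transporter, had 0.11 (FDR = 0.959 in edgeR, exact permutation p = 0.152). Htr2c, a serotonin receptor abundant in choroid plexus, had −0.15 (FDR = 0.631 in edgeR, exact permutation p = 0.265). Choroid plexus markers summed to 737 to 969 CPM in WT and 604 to 841 CPM in Capn15 KO brains. The fitted values of all 5 were below 0, against 48.6% of all genes. An unadjusted p under 0.05 was found for 4 of them, against 5.14% of all genes. None of those 5 markers passed an FDR of 0.05, and their part in the Htr2c value was not tested.

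The regulators of serotonin and noradrenaline neurons had the following values. All 6 serotonin regulators were measured, with a median log2 fold change of 0.00075, and Gata3 and Insm1 had −0.0030 and 0.049. Of 4 noradrenaline regulators 2 were measured, and none had an unadjusted p under 0.05. Tlx3, at 0.889 CPM on average and as few as 22 counts in a library, had a fitted −0.26 (SE 0.173). Its group means were nearly equal, 0.881 CPM in WT and 0.898 CPM in Capn15 KO brains (exact permutation p = 0.977). The receptor lists had medians of −0.018 for 3 dopamine, −0.050 for 12 serotonin and −0.045 for 8 adrenergic receptors. Drd1 and Drd2 had −0.018 and −0.0079, Htr1b had −0.057, and Adra1b and Adra2a had −0.087 and 0.033.

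**Figure D5:**
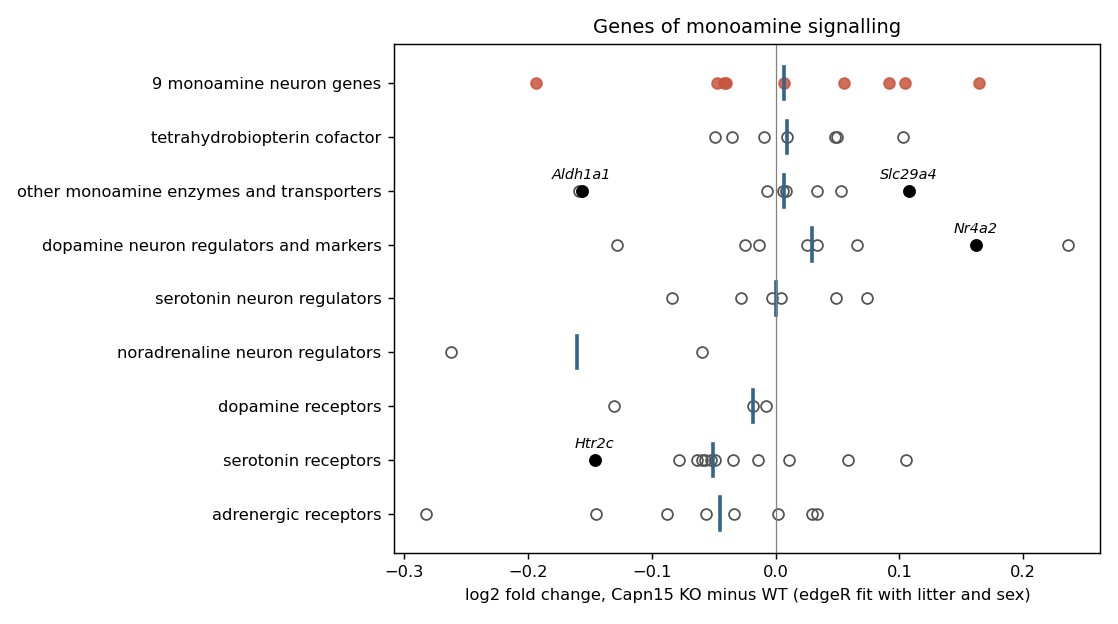
Fitted log2 fold change (Capn15 KO minus WT) of the 9 genes (top row) and the 54 measured pathway genes in 8 lists, 1 point per gene, with the list's median as a bar and filled black points for an unadjusted p under 0.05. The medians of the lists with 3 or more genes lie between −0.050 (12 serotonin receptors) and 0.029 (8 dopamine regulators), and no point passed an FDR of 0.05.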

How the data were processed

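RNA-SEQ was done on P2 brains of 7 WT and 7 Capn15 KO mice. The authors deposited unnormalised read counts per gene in 1 table of 17927 genes, which they call filtered without a stated rule. Per the study's methods, Trimmomatic removed 3′ bases under a phred score of 30, and reads were aligned to GRCm38 with STAR 2.7.8 and counted with HTSeq-count 0.11.1, while the labels name featureCounts, so which counter made the table is not certain, and the labels and methods also name different library kits and sequencers. All 14 columns matched a sample by name, 0 were left unused, and litter and sex came from the column names. The count depth was 37620954 to 70910163 per library.

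The counts were fitted with edgeR 4.0.16 (R 4.3.3, limma 3.58.1) by the quasi-likelihood test with TMM scaling and genotype, sex and litter as terms, as the study used edgeR with sex and litter. The study's own analysis called many more genes by genotype, with Capn15 as the strongest of them. The source of that difference was not tested. p-values were adjusted over all 17927 genes by Benjamini-Hochberg. Single genes were compared by exact permutation of the 7 against 7 log2 CPM values with a prior count of 2, which takes no account of litter or sex. Pairs of the same replicate number were compared by an exact sign-flip test (scipy 1.17.1). Both tests were two-sided. In litter B, which holds replicates 2 and 3 of each genotype, the pairs are matched by number alone. The p-values of the permutation test measure the spread between these brains, and those of the edgeR fit the spread left after litter and sex. The pairing of the replicate numbers by litter comes from the column names: correlations of same-numbered deviations over 15250 genes ran from −0.46 to 0.45 with a mean of 0.120. Litter is a term of the main fit.

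The members and lists were chosen with earlier results of these data known. The named pathway genes are the 2 most abundant of each list and each gene at an unadjusted p under 0.05. Some of them are not reported here. The 5 genes nearest in pattern to Slc6a3, Tph2 and Dbh were ranked by Pearson correlation. Level per kilobase used the union of exons of GENCODE M21. Alternatives were other tests (edgeR likelihood ratio, limma-voom, DESeq2 1.42.0), scalings, filters and terms, leaving out each library, and litters F and B. The scripts were tested on simulated data. The test of litter and the runs without litter B were chosen after seeing the data.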

Additional observations from a re-analysis of the deposited data

Results flagged for a closer look

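In 56 groups of 7 libraries examined for 1 library far from the rest (Dixon's test at the 95% level), 3 were past it, where chance gives about 2.8. Slc6a3 was highest in the library labelled WT 7, at 15.3 CPM, with the nearest other WT library at 11.7 CPM, a gap of 0.578 of the range. Capn15 was lowest among WT libraries in WT 7, at 18.7 CPM, with the nearest at 25.0 CPM and a gap of 0.726 of the range. Capn15 was highest among Capn15 KO libraries in Capn15 KO 7, at 20.2 CPM, with the nearest at 14.5 CPM and a gap of 0.703 of the range. Both brains are from litter F, and whether their labels are right was not tested.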

How the results depend on the processing

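Over 27 settings of the genotype test none of the 9 genes passed an FDR of 0.05 in any of 243 values, and the lowest FDR was 0.403 (Slc6a3 without WT or Capn15 KO replicate 5). The sign turned in 13 of them. These values are not independent: in a litter with a single brain of each genotype, leaving out either brain gives nearly the same fit. With 1 library left out, or litter F together with Capn15 KO replicate 4 (a run added after the data were seen), Th lay between −0.011 and 0.23, Tph2 between −0.031 and 0.041, Slc6a2 between −0.047 and 0.20 and Slc18a2 between −0.081 and 0.019. Slc6a3 stayed below 0 (−0.29 to −0.047) and Dbh above 0 (0.092 to 0.27) in those runs.

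The number of all genes called by genotype, 1 in the reported fit, was 34 by the likelihood ratio test, 17 by DESeq2, 0 with library totals alone, 2 without sex and 0 with the replicate block in place of litter (811 at an unadjusted p under 0.05). It was 7 without litter F, 37 by the likelihood ratio test without litter F, 2 without litter F and Capn15 KO replicate 4, and 0 to 7 with 1 library left out (6 without WT 7 and 7 without Capn15 KO 7). The replicate block changed no call among the 9 genes. Sex called 12 genes, and 36 by the likelihood ratio test; Maoa, −0.015 by sex, was 0.038 with sex alone. Litter called 5301 genes, and 196 without litter B, where the 3 calls among the 9 genes became 0; without litter F the FDR of Slc18a2 was 0.0562 and that of Slc6a3 0.0325, and by the likelihood ratio test Slc6a3 had 0.00923. The causes were not tested. Dbh is limited by depth: at 111 to 222 counts per library, counting alone gives a spread of 8.95% on average in WT and 8.16% in Capn15 KO libraries.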
